A study of Mus musculus with 69 samples.

Results

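The lungs of 5 mice that had received 162 µg of positively charged titanium dioxide nanoparticles (NRCWE-002) were compared with the lungs of 4 vehicle mice, all taken 28 days after the instillation. These 9 arrays were chosen by their titles out of 69 in the study, with 1 mouse on each array. All animals were female C57BL/6 mice, 5 to 7 weeks old on arrival and acclimatised for 1 to 3 weeks, and each was given a single dose into the trachea. The particles were dispersed in 2% serum in water, and the vehicle mice received that liquid without particles. The labels name no allele or other treatment. NRCWE-001 is the unmodified counterpart of NRCWE-002, and the study also held doses of 18 and 54 µg and lungs taken 24 h after the instillation. A small piece of frozen lung was homogenised per animal, so each value describes a tissue fragment with all of its cell types. Mice are called by the sample number of their title. The exposed mice were numbers 7, 14, 31, 37 and 54, and the vehicle mice were numbers 6, 21, 26 and 34.

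Particles that reach the alveoli are taken up by resident macrophages, and epithelial cells and macrophages then release chemokines that draw neutrophils and monocytes from the blood. Acute phase proteins, complement and interferon-induced genes are parts of that innate response. When inflammation persists, monocyte-derived macrophages carry lipid and lysosomal genes such as Trem2, Gpnmb and Spp1, and fibroblasts may lay down collagen and other matrix proteins.

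Each array compared the lung RNA, labelled with Cy5, with a common reference RNA labelled with Cy3. Values are log2 ratios of lung to reference, so a level of 1 gene cannot be set against the level of another. Depth is not a property of arrays, and the number of arrays limits the precision. In the sample channel 65.19% to 80.02% of the spots were well above background on the 9 arrays, the highest being mouse 54, and vehicle mouse 21 had the lowest share in the reference channel, 53.08%. Markers of the labelled tissue were present, since Sftpc (surfactant protein C), Sftpb and Ager (a gene of alveolar type 1 cells) were well above background on all 9 arrays. The 9 arrays came from 7 slides, and 2 slides held both groups. One slide carried vehicle mouse 6 and exposed mouse 7, and the other carried vehicle mouse 34 and exposed mouse 31. The other exposed mice, 14, 37 and 54, shared no slide with a vehicle lung of day 28.

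The first question was which genes differed between exposed and vehicle lungs on day 28. Of 17628 genes tested, limma called 1 gene, Hspa1a, at an adjusted p below 0.05, which is 0.00567% of the genes. At an unadjusted p below 0.05 there were 524 genes higher (2.97%) and 659 genes lower (3.74%) in the exposed lungs, and the median log2 change over all genes was -0.01. The balance turned to 687 higher and 587 lower with Agilent processed signals, and was 369 higher and 1210 lower with median centring. All 5 exposed lungs lay above all 4 vehicle lungs for 73 genes (0.414%) and below them for 115 genes (0.652%). By the exact permutation test over the 126 ways of dividing the 9 lungs, 85 genes reached the smallest p the design allows, 0.00794, and 572 genes had an exact p below 0.05. Single lungs decided the count of calls. Without exposed mouse 7 limma called 69 genes and without exposed mouse 31 it called 46, whereas without exposed mouse 14, 37 or 54 or vehicle mouse 21 it called 0. Without vehicle mouse 6 the count was 3.

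Hspa1a, the stress-inducible chaperone of the HSP70 class that refolds damaged proteins, rose in the exposed lungs. Its log2 ratio was 0.97, 0.21, 1.33 and 0.89 in vehicle mice 6, 21, 26 and 34, and 1.61, 2.52, 1.33, 2.28 and 1.96 in exposed mice 7, 14, 31, 37 and 54. The mean was 0.85 ± 0.47 (SD, n = 4) in vehicle lungs and 1.94 ± 0.48 (SD, n = 5) in exposed lungs. The groups met without overlap, as vehicle mouse 26 and exposed mouse 31 had the same value to 2 decimals. The difference was 1.09 ± 0.21 (SE) on the log2 scale, a 2.13-fold higher level, with an adjusted p of 0.043 by limma and an exact permutation p of 0.0159. On the slides shared by both groups the exposed lung was higher than its vehicle neighbour by 0.64 (mouse 7 against 6) and by 0.44 (mouse 31 against 34). The call was lost in limma without exposed mouse 14 (adjusted p of 0.252), 37 (0.331) or 54 (0.0749), without vehicle mouse 21 (0.321) or 34 (0.065), and with slide as a fixed block (0.92, adjusted p of 0.0908). It was also lost with median centring (0.88, adjusted p of 0.536), array weights (0.76, adjusted p of 0.284) and a fit of only these 9 arrays, and never changed direction. Both probes of the gene gave the same direction, with changes of 1.07 and 1.11. Hspa1a and Hspa1b are near-identical copies, so their probes may share signal.

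The other members of the heat shock and chaperone list did not pass the adjusted threshold. Hsph1, a co-chaperone of the HSP110 class, had log2 ratios of -1.07, -1.37, -0.77 and -1.30 in the vehicle lungs and -0.73, 0.17, -0.68, 0.03 and -0.11 in the exposed lungs, in the same order of mice. All exposed lungs were above all vehicle lungs, with a difference of 0.86 ± 0.20 (SE) and an adjusted p of 0.125 by limma. Hspa1b, the copy of Hspa1a, differed by 0.43 ± 0.11 (SE, adjusted p of 0.146 by limma), with values of -0.05, -0.02, 0.04 and -0.14 in vehicle lungs and 0.22, 0.76, 0.00, 0.58 and 0.37 in exposed lungs, and mouse 31 overlapped the vehicle range. Both passed with slide as a random block, Hsph1 with an adjusted p of 0.0134 and Hspa1b with 0.032 by limma. Both also passed without mouse 7 (0.0147 and 0.0409) and without mouse 31 (0.0204 and 0.0153). Of 25 members measured, 3 had an unadjusted p below 0.05, all higher (12%, against 2.97% of all genes). The median change of the list was 0.15, which turned to -0.07 with median centring. In mouse 14, 14 of the 25 genes lay above every vehicle lung, against 10 in mice 37 and 54, 6 in mouse 7 and 4 in mouse 31. Over all 17628 genes the count was 5200, 3913, 3815, 3061 and 3119 in mice 14, 37, 54, 7 and 31.

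Promoters of the heat shock genes are shown because the list held the called gene. RefSeq windows of assembly GRCm38.p6, from 250 bases before to 50 bases after the start, were found for 20 of the 25 list members. The heat shock element was searched on both strands as GAA, TTC and GAA in a row with 2 bases of any kind between them. It was found in 143 of 27025 promoters (0.529%) and in 3 of the 20, those of Chordc1, Hspe1 and Hsph1. In the windows below, the element is in capitals, and Hspa1a holds no match to these letters. The window of Hspa1a is chr17:34972107-34972406 and that of Hsph1 is chr5:149636287-149636586, both on the minus strand and written 5′ to 3′.
Hspa1a: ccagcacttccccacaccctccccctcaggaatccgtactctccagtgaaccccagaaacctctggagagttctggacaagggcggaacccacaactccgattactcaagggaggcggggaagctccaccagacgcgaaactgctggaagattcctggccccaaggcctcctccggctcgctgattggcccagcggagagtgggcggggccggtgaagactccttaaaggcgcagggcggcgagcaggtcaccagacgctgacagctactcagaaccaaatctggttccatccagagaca
Hsph1: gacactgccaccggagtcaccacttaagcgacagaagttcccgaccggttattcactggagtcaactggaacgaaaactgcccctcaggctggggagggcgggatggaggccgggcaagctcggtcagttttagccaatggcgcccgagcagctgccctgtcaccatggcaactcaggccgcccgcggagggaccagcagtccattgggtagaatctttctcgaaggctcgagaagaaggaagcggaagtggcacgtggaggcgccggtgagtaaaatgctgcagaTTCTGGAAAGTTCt

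Among the other genes whose groups did not overlap and whose unadjusted p was below 0.01, Spp1 had the largest difference. Spp1 encodes osteopontin, a secreted phosphoprotein made by macrophages and epithelium in injured lung. Its log2 ratio was -5.15, -4.85, -5.25 and -5.20 in vehicle mice 6, 21, 26 and 34, and -4.12, -2.66, -4.07, -2.47 and -2.62 in exposed mice 7, 14, 31, 37 and 54. Every exposed lung was above every vehicle lung, with mice 14, 37 and 54 well above mice 7 and 31. The difference was 1.93 ± 0.47 (SE), 3.81-fold, with an adjusted p of 0.132 by limma and an exact permutation p of 0.0238. Within the shared slides it was 1.03 and 1.14, smaller than over all lungs. Spp1 passed the adjusted threshold only when mouse 7 (adjusted p of 0.0268 by limma) or mouse 31 (0.0351) was left out, among the leave-one-out fits.

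Cdkn1a, the cell cycle inhibitor p21, had values of -2.16, -1.95, -1.77 and -2.03 in vehicle lungs and -1.18, -0.25, -1.72, -1.36 and -1.23 in exposed lungs, a difference of 0.83 ± 0.27 (SE, adjusted p of 0.492 by limma). Mouse 14 stood highest and mouse 31 lay close to vehicle mouse 26. The next genes in this direction were Banp, a nuclear matrix protein gene (0.77), Hyal2, a hyaluronidase (0.48), Creld2, a gene of endoplasmic reticulum stress (0.46), and Rbm14, an RNA-binding protein (0.44). Their adjusted p by limma ran from 0.0654 for Banp to 0.608 for Rbm14. Banp passed with slide as a random block (0.0161), scan day as a block (0.0408) and without mouse 7 (0.0241), mouse 31 (0.0203) or vehicle mouse 34 (0.034), and Creld2 without mouse 7 (0.0477). For Banp, Hyal2 and Rbm14 the lowest value of all was that of vehicle mouse 21.

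In the opposite direction the largest difference by the same rule was that of Ccn4. Ccn4, a matricellular protein induced by WNT signalling, had values of -2.11, -2.32, -2.42 and -1.87 in vehicle mice 6, 21, 26 and 34, and -3.04, -3.39, -3.01, -3.04 and -2.54 in exposed mice 7, 14, 31, 37 and 54. All exposed lungs were below all vehicle lungs, by -0.82 ± 0.24 (SE, adjusted p of 0.346 by limma), and the shared slides gave -0.93 and -1.14. It passed with slide as a random block (adjusted p of 0.0475 by limma) and with scan day as a block (0.0391). Mgp, the matrix Gla protein that inhibits calcification, had 6.28, 6.49, 6.60 and 6.24 in vehicle lungs and 5.90, 5.56, 5.76, 5.72 and 6.01 in exposed lungs, a difference of -0.61 ± 0.15 (SE, adjusted p of 0.146 by limma, 0.0391 with scan day as a block and 0.0495 without mouse 7). In Mgp, unlike the inflammatory genes, mouse 7 and mouse 31 lay within the range of the other exposed lungs. Antxr1, a cell surface receptor that binds collagen, had 1.87, 2.29, 2.00 and 2.00 in vehicle lungs and 1.78, 0.84, 1.45, 1.36 and 1.61 in exposed lungs, and its difference of -0.63 ± 0.13 (SE) had an adjusted p of 0.0502 by limma, just over the threshold. It passed with the probes required to be well above background on all 9 arrays (0.046), with slide as a random block (0.0134) and with scan day as a block (0.0345), and without mouse 7 (0.00568) or mouse 31 (0.0244). Cdh13, a cadherin of vessels, differed by -0.67, Antxr2 by -0.48 and Sparc, a collagen-binding matrix protein, by -0.47. Anxa5, which binds phosphatidylserine, differed by -0.47 and Adcy7, an adenylate cyclase, by -0.43. None of these 5 passed the adjusted threshold by limma, though Sparc did with slide as a random block (0.0227) and scan day as a block (0.0345), and Cdh13 (0.0298) and Adcy7 (0.0481) did without mouse 7.

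**Figure D1:**
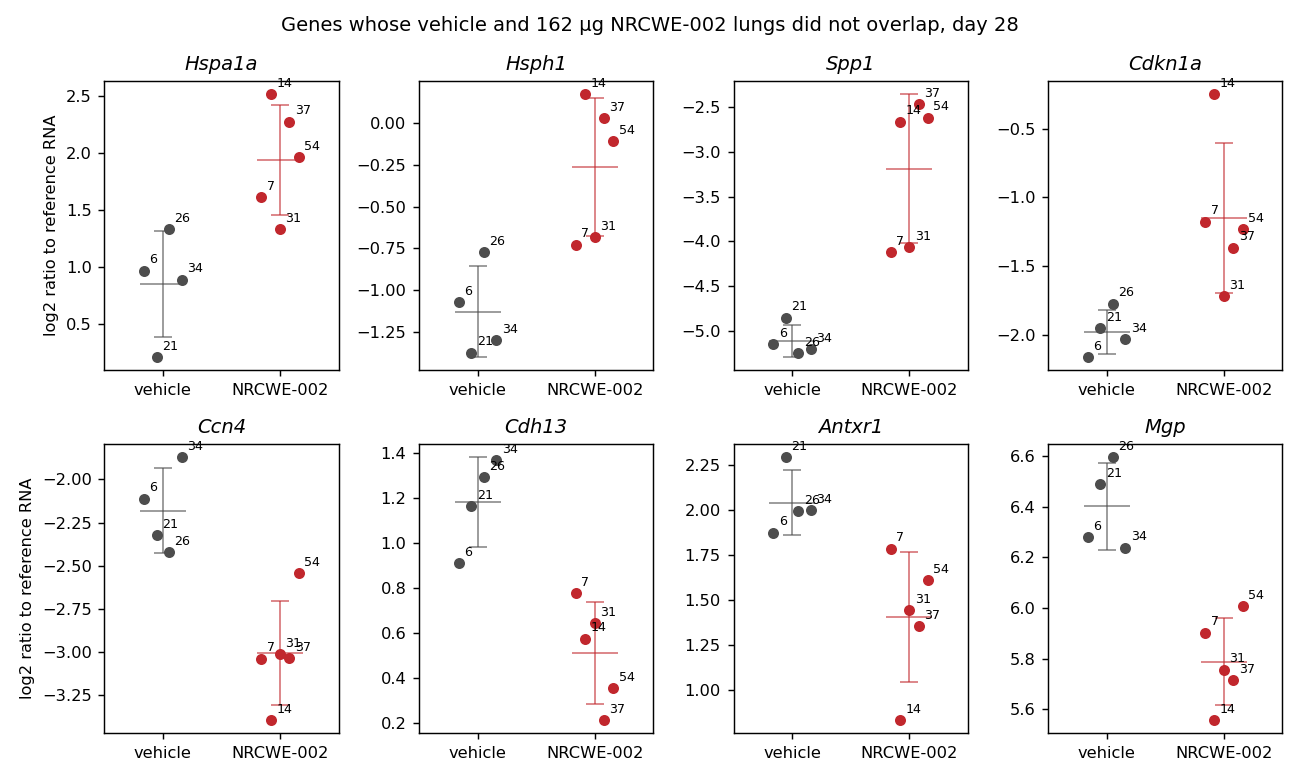
Each panel plots the log2 ratio of lung to reference RNA (vertical axis) for the 4 vehicle lungs and the 5 lungs given 162 µg NRCWE-002, each point being 1 mouse with its number, the long line the mean and the bars 1 SD. Hspa1a, Hsph1, Spp1 and Cdkn1a were higher and Ccn4, Cdh13, Antxr1 and Mgp lower in all exposed lungs, while only Hspa1a passed the adjusted threshold.

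Inflammation genes showed a different pattern, in which the exposed mice did not move together. The list of interferon-induced genes held 15 genes, of which 13 were measured, all 13 of them higher with an unadjusted p below 0.05 (2.97% of all genes), and their median change was 1.22. None passed the adjusted threshold, and for none did the groups separate. In mice 14, 37 and 54 all 13 genes lay above every vehicle lung, against 1 of 13 in mice 7 and 31. The same count over all 17628 genes was 5200 in mouse 14, 3913 in mouse 37, 3815 in mouse 54, 3119 in mouse 31 and 3061 in mouse 7. Averaged over the list and set against the vehicle mean, the value was 2.03 in mouse 14, 2.12 in mouse 37 and 1.85 in mouse 54, and -0.21 in mouse 7 and -0.19 in mouse 31. The vehicle lungs ranged from -0.06 to 0.09. Within the shared slides, which held mice 7 and 31, the median change of the list was -0.13 and -0.12. Mouse 37 was scanned on the same day as exposed mouse 31 and vehicle mouse 34, whose list value was -0.01. The count of 13 fell to 3 when only the arrays of these groups were fitted and to 8 with median centring, and was 10 to 13 with single lungs left out.

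Irf7, the transcription factor that amplifies the interferon response, had log2 ratios of -1.59, -0.76, -1.57 and -1.54 in vehicle mice 6, 21, 26 and 34, and -1.56, 3.37, -1.65, 1.47 and 1.27 in exposed mice 7, 14, 31, 37 and 54. Mice 7 and 31 lay at the vehicle level and mouse 14 was far above the rest. The difference was 1.95 ± 0.58 (SE, adjusted p of 0.381 by limma, exact permutation p of 0.151). Isg15, a ubiquitin-like modifier, had -0.91, -0.19, -0.79 and -0.78 in vehicle lungs and -1.16, 1.82, -1.35, 2.35 and 2.10 in exposed lungs. Its values in mice 7 and 31 were below all vehicle lungs. Ifit1, which binds viral RNA, had -0.08, -0.97, -0.07 and 0.04 in vehicle lungs and -0.41, 1.64, -0.27, 3.18 and 2.45 in exposed lungs, and mouse 37 was the highest. Oasl2, a member of the oligoadenylate synthetase family, differed by 1.40 ± 0.39 (SE, adjusted p of 0.271 by limma, exact permutation p of 0.135). Its values were 0.73, 3.03, 0.79, 3.33 and 3.16 in exposed lungs against 0.81, 0.73, 0.94 and 0.77 in vehicle lungs. Irf7 and Oasl2 passed without mouse 7 (adjusted p of 0.0282 and 0.0185 by limma) and without mouse 31 (0.0316 and 0.0244).

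Promoters of interferon-induced genes are shown because these members were high in the same lungs. The interferon response element was searched on both strands of the same RefSeq windows as GAAA, 2 bases of any kind and GAAA again. It was found in 943 of 27025 promoters (3.49%) and in 6 of the 10 list members with a window, those of Bst2, Ifit1, Ifit3, Isg15, Oas1a and Rsad2. The windows of Irf7, Oasl2, Ifi44 and Ifit2 held no match to these letters. Outside the list, the windows of the chemokine gene Cxcl10 and of Spp1 each held 1 match, and that of Cxcl9 held no match. Capitals mark the element. The windows in GRCm38.p6 are chr19:34640639-34640938 on the plus strand for Ifit1, chr4:156200769-156201068 on the minus strand for Isg15 and chr5:92348840-92349139 on the minus strand for Cxcl10, each written 5′ to 3′.
Ifit1: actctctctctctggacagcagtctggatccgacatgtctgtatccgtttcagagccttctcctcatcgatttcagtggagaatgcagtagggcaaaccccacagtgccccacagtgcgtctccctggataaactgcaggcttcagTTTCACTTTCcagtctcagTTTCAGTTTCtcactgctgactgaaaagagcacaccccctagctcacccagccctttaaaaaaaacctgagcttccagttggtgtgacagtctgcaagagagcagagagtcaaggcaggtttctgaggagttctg
Isg15: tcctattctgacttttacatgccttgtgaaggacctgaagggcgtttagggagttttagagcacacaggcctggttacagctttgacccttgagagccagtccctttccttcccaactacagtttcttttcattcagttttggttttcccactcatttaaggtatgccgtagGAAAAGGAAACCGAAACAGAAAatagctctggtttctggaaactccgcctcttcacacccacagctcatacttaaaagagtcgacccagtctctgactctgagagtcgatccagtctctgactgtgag
Cxcl10: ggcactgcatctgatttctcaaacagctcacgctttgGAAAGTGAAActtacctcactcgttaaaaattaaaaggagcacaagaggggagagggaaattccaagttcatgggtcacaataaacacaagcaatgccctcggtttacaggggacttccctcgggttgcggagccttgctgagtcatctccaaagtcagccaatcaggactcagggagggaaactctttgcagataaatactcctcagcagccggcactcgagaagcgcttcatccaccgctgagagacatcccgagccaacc

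Chemokines that draw monocytes followed the same split of the mice. Of 15 members of the monocyte and macrophage chemokine list, 8 had an unadjusted p below 0.05, all higher (53.3%, against 2.97% of all genes). All 15 changes were positive with a median of 0.54. Ccl2, the main ligand of the monocyte receptor Ccr2, had log2 ratios of -4.37, -5.06, -4.55 and -4.28 in vehicle mice 6, 21, 26 and 34, and -4.32, -2.51, -3.95, -1.30 and -1.69 in exposed mice 7, 14, 31, 37 and 54. Mouse 7 lay inside the vehicle range and mouse 37 stood highest. The difference was 1.81 ± 0.56 (SE, adjusted p of 0.486 by limma, exact permutation p of 0.0556). Ccl7, another Ccr2 ligand, differed by 1.80 ± 0.60 (SE), Ccl12 by 1.21 ± 0.44 and Ccl8 by 1.54 ± 0.58, with adjusted p-values of 0.534, 0.611 and 0.626 by limma. The count of 8 rested on single lungs, being 3 without mouse 37, 4 without mouse 54 and 5 without mouse 14 or vehicle mouse 21. It was 5 with slide or scan day as a fixed block.

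Chemokines that act on lymphocytes were also high in mice 14, 37 and 54. The list of lymphoid chemokines and ligands of Cxcr3 had 6 of 14 members higher at an unadjusted p below 0.05 (42.9%, against 2.97% of all genes). Its median change was 0.18. Cxcl10, a ligand of Cxcr3 on T cells, had -1.30, -1.44, -0.96 and -0.74 in vehicle lungs and -1.66, 1.76, -0.68, 2.95 and 2.30 in exposed lungs, so mouse 7 was below all vehicle lungs and mouse 37 was the highest. Its difference was 2.05 ± 0.70 (SE, adjusted p of 0.555 by limma, exact permutation p of 0.119). Cxcl9, the other interferon-γ-induced ligand of this receptor measured here, differed by 1.49 ± 0.49 (SE, adjusted p of 0.495 by limma, exact permutation p of 0.167). It was well above background in all 4 vehicle lungs and in 3 of the 5 exposed lungs. Without mouse 31 it passed (0.0453). Cxcl13, Ccl19 and Ccl20, which organise or attract lymphoid cells, differed by 0.98, 0.88 and 0.57. Ccl20 was well above background in 1 of the 4 vehicle lungs and 4 of the 5 exposed lungs. Of 6 T cell markers, 0 had an unadjusted p below 0.05, which in so short a list is near the share of all genes. Their list value was 0.25 in mouse 14, 0.28 in mouse 54, 0.05 in mice 37 and 7 and -0.23 in mouse 31. The vehicle lungs ranged from -0.25 to 0.18.

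Neutrophil chemokines had fewer members of this kind. Cxcl5, an epithelial chemokine for neutrophils, was not well above background in any vehicle lung and was so in 3 of 5 exposed lungs. Its log2 ratio was -3.46, -1.24, -3.33, 1.38 and 0.51 in exposed mice 7, 14, 31, 37 and 54, and its difference as a ratio to reference was 2.13 ± 0.83 (SE, 4.38-fold, adjusted p of 0.626 by limma). On the lung channel alone, without the reference, the mean log2 signal was 8.18 in exposed and 5.65 in vehicle lungs, and the lowest signal counted as well above background on the vehicle arrays, or the gene's own where higher, averaged 5.84, so on that scale the exposed mean was at least 5.03-fold higher. Cxcl3 was not well above background in any vehicle lung either, and differed by 0.33 ± 0.21 (SE) as a ratio to reference and by at least 1.27-fold on the lung channel alone. Cxcl1 differed by 0.49 ± 0.45 (SE, adjusted p of 0.89 by limma), with mice 37 and 54 above all vehicle lungs and mouse 14 below them, and it was well above background in 2 of the 4 vehicle lungs. In all, 2 of 11 members had an unadjusted p below 0.05, both higher (18.2%, against 2.97% of all genes). None of the 8 measured neutrophil markers did. S100a8, a calprotectin gene, had 2.07, 2.72, 2.23 and 2.41 in vehicle lungs and 2.85, 1.25, 2.37, 1.40 and 1.49 in exposed lungs.

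Classical cytokines gave no call. Il6 differed by 0.16 ± 0.34 (SE), Tnf by 0.29 ± 0.18 and Il1b by 0.44 ± 0.38, with adjusted p-values by limma of 0.961, 0.788 and 0.878. Of 21 cytokine and NF-κB genes, 4 were higher (19%) and 2 lower (9.52%) at an unadjusted p below 0.05, against 2.97% and 3.74% of all genes. Among them, Nfkbia, the inhibitor that NF-κB itself induces, differed by 0.54, Socs3, a feedback inhibitor of cytokine signalling, by 0.41 and Il18 by -0.51.

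Phagocyte and complement genes followed mouse 14 most. Trem2, a lipid receptor of macrophages, had log2 ratios of -2.16, -2.13, -2.19 and -2.09 in vehicle mice 6, 21, 26 and 34, and -2.33, 0.99, -2.07, -0.51 and -0.44 in exposed mice 7, 14, 31, 37 and 54. The vehicle lungs were close to each other, mouse 7 was below them, mouse 31 was just above them and mouse 14 was the highest. The difference was 1.27 ± 0.37 (SE), with an exact permutation p of 0.135. Its adjusted p by limma was 0.376, and 0.0241 without mouse 7 and 0.0444 without mouse 31. Gpnmb, a lysosomal membrane glycoprotein of lipid-laden macrophages, had -4.06, -3.07, -3.91 and -4.01 in vehicle lungs and -3.91, 0.38, -3.64, -1.93 and -1.93 in exposed lungs, a difference of 1.55 ± 0.51 (SE, adjusted p of 0.492 by limma). Fcgr1, the high-affinity IgG receptor, differed by 1.11 ± 0.35 and Ms4a7, a macrophage membrane protein, by 1.04 ± 0.39 (SE), and Fcgr1 passed without mouse 7 (0.0477). Of 22 phagocyte, lysosome and lipid genes, 5 were higher at an unadjusted p below 0.05 (22.7%, against 2.97% of all genes). The count was 2 without mouse 14 and 8 without mouse 7 or 31, and 3 without mouse 54 or vehicle mouse 6 or 34. It was 8 with slide as a fixed or random block and 2 with only the groups compared.

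Complement genes gave 5 of 12 members higher at an unadjusted p below 0.05 (41.7%, against 2.97% of all genes), with a median change of 0.51. Cfb, factor B of the alternative pathway, had 3.30, 2.52, 3.22 and 3.02 in vehicle lungs and 3.13, 5.33, 3.37, 4.09 and 3.72 in exposed lungs, a difference of 0.91 ± 0.28 (SE, adjusted p of 0.426 by limma). The C1q chains C1qa, C1qb and C1qc, which start the classical pathway and are made by macrophages, differed by 0.76, 0.69 and 0.61. The count was 1 without mouse 14, 2 without vehicle mouse 21 and 3 without mouse 54 or vehicle mouse 6, 26 or 34. It was 1 with Agilent processed signals or array weights and 3 with median centring, scan day as a block or only the groups compared. Alternative macrophage activation had 0 of 13 members at an unadjusted p below 0.05 in either direction. In so short a list that is near the share of all genes, 2.97% higher and 3.74% lower. Retnla, a marker of that state, differed by 0.44 ± 0.55 (SE).

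Markers of other cell types were counted beside these genes. Of 6 markers of resident alveolar macrophages measured, 2 were lower at an unadjusted p below 0.05 (33.3%, against 3.74% of all genes). They were Krt79 (-0.98 ± 0.32, SE) and Ear1, an eosinophil-associated ribonuclease (-0.73 ± 0.36). Over the 6, 4 changes were negative and 2 positive, up to 0.12, and the median was -0.18. Krt79 was 3.39, 3.13, 3.66 and 4.10 in vehicle mice 6, 21, 26 and 34, and 3.67, 1.95, 3.38, 2.10 and 1.86 in exposed mice 7, 14, 31, 37 and 54. Mice 14, 37 and 54 were thus lowest for this marker and highest for the interferon list. In whole lung, fewer cells of a type and less RNA per cell cannot be told apart. Jchain, which joins the chains of secreted IgM and IgA in plasma cells, had -2.84, -3.99, -3.72 and -3.24 in vehicle lungs and -2.61, -1.12, -3.11, -0.94 and -0.02 in exposed lungs, a difference of 1.89 ± 0.42 (SE, adjusted p of 0.0867 by limma). It passed with slide as a random block (0.043), without mouse 7 (0.00984) and without mouse 31 (0.00759). Mice 14, 37 and 54 were again above the others, with mouse 54 highest. Jchain and Mzb1 were the 2 of 7 B and plasma cell markers higher at an unadjusted p below 0.05 (28.6%, against 2.97% of all genes). The other 5 had negative changes and the median of the 7 was -0.06.

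**Figure D2:**
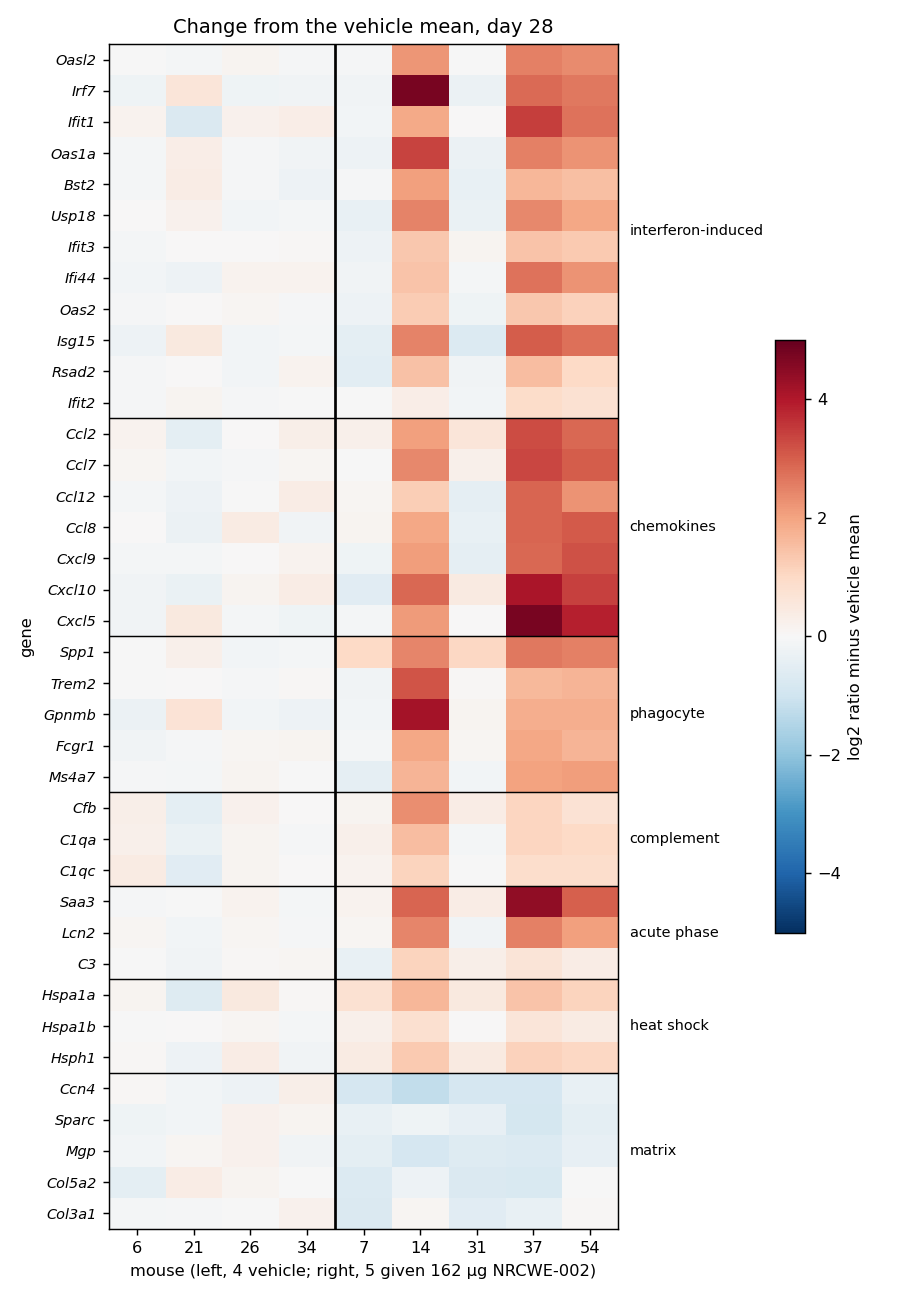
Rows are named genes and columns are the 9 lungs (left of the line, 4 vehicle; right, 5 given 162 µg NRCWE-002), and colour gives the log2 ratio minus the vehicle mean. Most interferon, chemokine, phagocyte, complement and acute phase genes were high in mice 14, 37 and 54 and near the vehicle level in mice 7 and 31. Spp1, Hspa1a and Hsph1 were higher, and Ccn4 and Mgp lower, in all 5 exposed lungs. Saa3 was also above every vehicle lung in all 5, though by little in mice 7 and 31. C3 had a log2 ratio of 1.73 in mouse 31 and 1.82 in mouse 54.

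Acute phase genes were few among those that differed. Saa3, the serum amyloid A made in lung, had log2 ratios of -3.72, -3.67, -3.46 and -3.73 in vehicle mice 6, 21, 26 and 34, and -3.46, -0.76, -3.27, 0.79 and -0.65 in exposed mice 7, 14, 31, 37 and 54. Every exposed lung was above every vehicle lung, though mouse 7 had the value of vehicle mouse 26 to 2 decimals. Mouse 37 was the highest. The difference was 2.18 ± 1.21 (SE, adjusted p of 0.767 by limma). Lcn2, an iron-sequestering protein of epithelium and neutrophils, differed by 1.39 ± 0.65 (SE). It was the 1 of 18 acute phase genes at an unadjusted p below 0.05 (5.56%, against 2.97% of all genes higher). Slc26a4, an epithelial anion exchanger, had 2.59, 1.84, 2.53 and 2.08 in vehicle lungs and 2.04, 4.83, 1.70, 5.49 and 4.60 in exposed lungs, and differed by 1.47 ± 0.86 (SE, adjusted p of 0.776 by limma).

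Remodelling genes were counted by list. Of 35 collagen and matrix genes, 7 were lower and 1 was higher at an unadjusted p below 0.05 (3.74% and 2.97% of all genes), and the median change was -0.17. The lower members included Col5a2 (-0.48), Postn (-0.35), which encodes periostin, Fbn1 (-0.26), which encodes fibrillin, and Loxl2 (-0.27), a collagen cross-linking enzyme, and the higher one was Thbs2 (0.34), a thrombospondin. The count of 7 was 3 without vehicle mouse 26, 4 without mouse 37 and 12 without mouse 14. It was 12 and 11 with slide as a fixed and a random block, 14 with scan day as a block, 13 with array weights and 4 with only the groups compared. Averaged over the list, mouse 14 lay 0.34 above the vehicle mean, higher than every vehicle lung, and the other exposed lungs lay between -0.31 and -0.12. The median change of the list was -0.06 without mouse 37. Col1a1, the main chain of type I collagen, had -1.98, -1.57, -1.64 and -1.83 in vehicle lungs and -2.24, -0.43, -2.17, -2.01 and -2.03 in exposed lungs, so mouse 14 stood above all other lungs while the other exposed mice were below the lowest vehicle lung. Its difference was -0.02 ± 0.23 (SE, adjusted p of 0.995 by limma, 95% interval -0.48 to 0.45). Col3a1 differed by -0.30 ± 0.17 (SE, adjusted p of 0.776 by limma), and the probes of Col1a1, Col3a1 and Tnc disagreed in sign.

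Other fibrosis-related genes gave no call. Fn1, fibronectin, differed by 0.22 ± 0.29, Tgfb1, the cytokine that drives myofibroblasts, by 0.16 ± 0.19, Tnc, tenascin C, by -0.06 ± 0.15 and Timp1, an inhibitor of metalloproteinases, by 0.55 ± 0.52 (SE). In mouse 14 Tgfb1 was 1.33, against -0.30 to 0.12 in the other exposed lungs and -0.10 to 0.26 in vehicle lungs. Of 26 profibrotic signals, 3 were lower at an unadjusted p below 0.05 (11.5%, against 3.74% of all genes) and 0 higher. The 3 were Ccn4, Areg (-0.64), a ligand of the EGF receptor, and Pdgfa (-0.25). Mmp12, the macrophage elastase, was not well above background in any vehicle lung and was so in 3 of 5 exposed lungs. It differed by 0.31 ± 0.17 (SE) as a ratio to reference and by at least 1.30-fold on the lung channel alone. It was not the 1 of 21 metalloproteinase genes with an unadjusted p below 0.05, which was Mmp11 (-0.24). That is 4.76% lower, near the 3.74% of all genes, and the median change of that list was 0.07.

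Other functional lists were counted in the same way, against 2.97% of all genes higher and 3.74% lower. Immediate early genes had 3 of 23 members higher (13%), Junb (0.69), Gadd45g (0.63) and Atf3 (0.45), with a median of 0.23. Antioxidant and metallothionein genes had 1 of 15 (6.67%), Gclc (0.49), which sets the rate of glutathione synthesis. Proliferation genes had 0 of 22 in either direction, but the exposed mice were split. In mouse 54, 16 of the 22 lay above every vehicle lung and in mouse 14, 13 did. The count was 5 in mouse 37, 1 in mouse 31 and 0 in mouse 7. Over all 17628 genes it was 3815, 5200, 3913, 3119 and 3061 in mice 54, 14, 37, 31 and 7. The list value was 0.32 in mouse 54, 0.24 in mouse 14, -0.01 in mouse 37, -0.19 in mouse 31 and -0.26 in mouse 7. The vehicle lungs ranged from -0.14 to 0.10. The study had also drawn groups of genes that move together, called biclusters, from other lung disease data. Biclusters 9 and 10 came from genes lowered in those data, and Bicluster 7 from pulmonary fibrosis models only. The paper scored them by a statistic for the effect of dose, so its results are not comparable with these counts. Bicluster 3, which holds chemokines, had 7 of 17 members higher at an unadjusted p below 0.05 (41.2%). Bicluster 7 had 7 of 19 (36.8%), Bicluster 9 had 5 of 17 (29.4%), Bicluster 8 had 4 of 15 (26.7%) and Bicluster 1 had 3 of 17 (17.6%). Bicluster 10 had 0 higher and 1 of 16 lower (6.25%), Tnxb (-0.31). The median change was 0.44 in Bicluster 3, 0.25 in Bicluster 7 and -0.12 in Bicluster 10.

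Cardiac muscle genes had a larger median change than any inflammation list. Of 9 cardiac muscle markers, 8 were higher at an unadjusted p below 0.05 (88.9%, against 2.97% of all genes) and the median change was 2.21. Tnni3, cardiac troponin I, had 3.28, 0.32, -0.26 and -0.16 in vehicle mice 6, 21, 26 and 34, and 2.65, 3.96, 2.50, 4.74 and 2.90 in exposed mice 7, 14, 31, 37 and 54. Vehicle mouse 6 lay among the exposed lungs, and the other 3 vehicle lungs were far below. Averaged over the list, vehicle mouse 6 had 1.85 above the vehicle mean and the other vehicle lungs -0.70 to -0.50, while the exposed lungs had 1.17 to 3.04. The 5 members of Bicluster 9 that had an unadjusted p below 0.05, Tnni3, Pln, Csrp3, Myl7 and Myh6, are genes of cardiac muscle. With slide as a fixed block 0 of the 9 markers had an unadjusted p below 0.05, with scan day as a block 2, and the count was 2 to 9 with single lungs left out (2 without mouse 37 or vehicle mouse 26 or 34, 3 without vehicle mouse 21). On the slides shared by both groups the median change was -0.47 and 2.43. Airway secretory markers were likewise high in vehicle mouse 6 (1.61) and in mice 7, 14, 37 and 54 (0.87 to 1.55), and low in mouse 31 (-0.42) and the other vehicle lungs (-0.70 to -0.36). Markers of both tissues thus varied between lungs of 1 group, and their part in the other results was not tested. Mouse 31 was low in airway markers and mouse 7 high, and both were at the vehicle level for the interferon list. On the cardiac list mice 31 (1.17) and 7 (1.58) were the lowest exposed lungs. Mice 54, 14 and 37 had 1.84, 2.25 and 3.04 there. Vehicle mouse 6, at 1.85 on the cardiac list, had -0.06 on the interferon list. Any link between these lists was not tested.

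**Figure D3:**
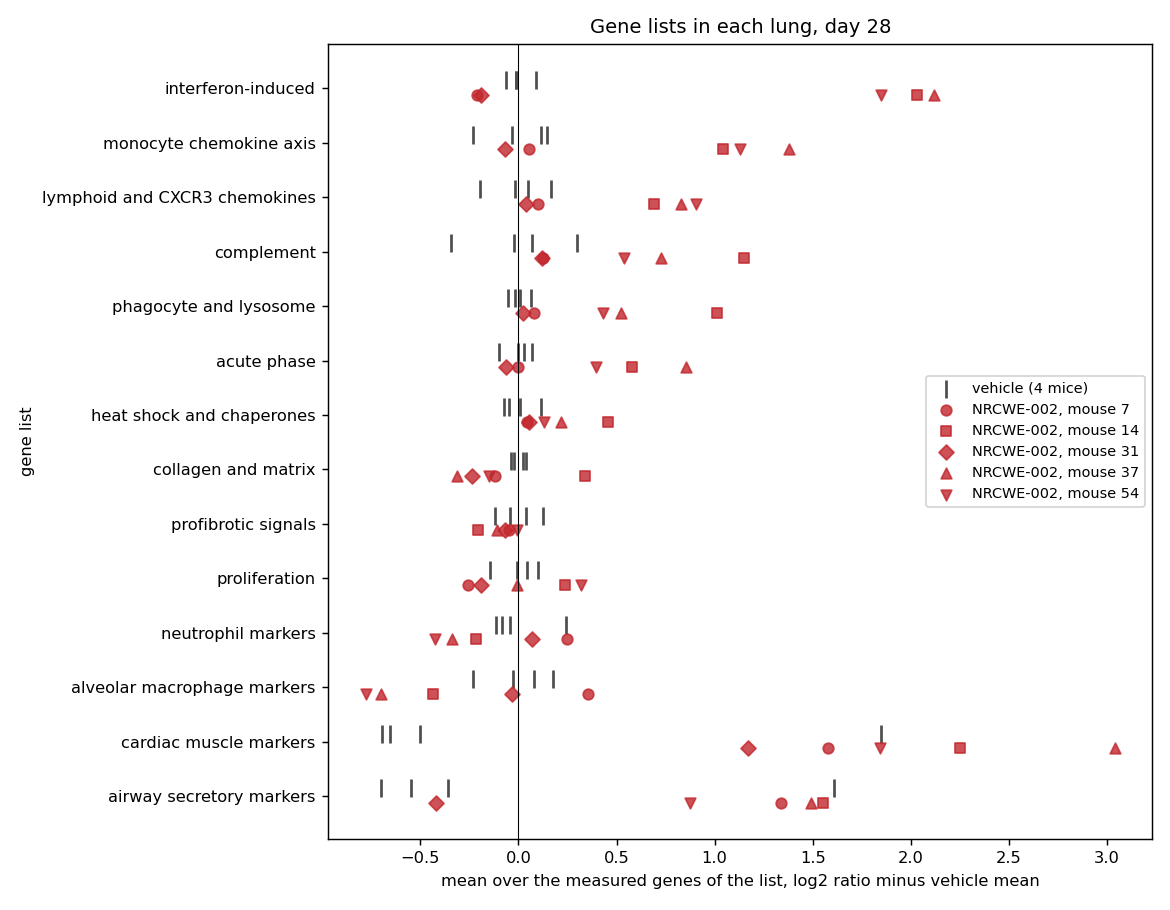
For each gene list (vertical axis) the mean over its measured genes of the log2 ratio minus the vehicle mean is plotted, with vertical ticks for the 4 vehicle lungs and a symbol for each exposed mouse. Mice 14, 37 and 54 stand apart on the interferon, monocyte chemokine, lymphoid chemokine, complement and phagocyte lists, while on the cardiac muscle list all exposed lungs and vehicle mouse 6 (1.85) lie above the other vehicle lungs.

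The spread between animals was larger in the exposed group. The median over genes of the SD between lungs was 0.209 in the 5 exposed lungs and 0.141 in the 4 vehicle lungs, and 0.209 was the highest of the 14 groups of the study. Over the interferon list the median SD was 1.32 in exposed and 0.16 in vehicle lungs. The lowest correlation across genes between 2 arrays of a group was 0.8427 in exposed and 0.9366 in vehicle lungs. No test of the spread was made.

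Next, the charged particle was compared with the unmodified one at the same dose and day. Between the 5 lungs given 162 µg NRCWE-002 and the 5 given 162 µg NRCWE-001, limma called 0 of 17628 genes (0%), while 1480 genes had an unadjusted p below 0.05, 693 higher and 787 lower with the charged particle. The smallest adjusted p was 0.176. Leaving out single lungs gave 0 to 6 calls, with 6 without exposed mouse 54, and array weights gave 19. Creld2 differed by 0.52 (95% interval 0.29 to 0.76, adjusted p of 0.176 by limma). Hsph1 differed by 0.75 (95% interval 0.37 to 1.13, adjusted p of 0.252 by limma), with NRCWE-001 lungs from -1.29 to -0.82. Genes that were high in mice 14, 37 and 54 had wide intervals. The difference was -0.01 for Cxcl10 (95% interval -1.33 to 1.30), 0.21 for Irf7 (-0.88 to 1.29), -0.15 for Ccl2 (-1.21 to 0.91), -0.28 for Trem2 (-0.98 to 0.43) and -0.20 for Spp1 (-1.09 to 0.69). It was -0.85 for Saa3 (-3.14 to 1.44), -0.60 for Slc26a4 (-2.22 to 1.02), -0.55 for Ctss (-1.14 to 0.05), a lysosomal protease, and -0.42 for Gpnmb (-1.38 to 0.53). For Hspa1a it was 0.37 (-0.03 to 0.76).

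The lungs given 162 µg NRCWE-001 were split between animals as well. Against the vehicle mean, their interferon list value was 1.47 in mouse 22, 1.73 in mouse 59 and 2.01 in mouse 68, and 0.02 in mouse 39 and -0.05 in mouse 57. Of the lungs at 18 and 54 µg of either particle, mouse 5, at 54 µg of NRCWE-002, had 1.84 and mouse 8, at 18 µg of NRCWE-002, had 0.62, and the others had -0.25 to 0.30. Hspa1a did not follow the dose. Its mean was highest at 18 µg of NRCWE-001, 2.95 ± 0.17 (SD, n = 5), then 1.94 at 162 µg of NRCWE-002, 1.90 at 54 µg of NRCWE-001, 1.59 at 18 µg of NRCWE-002, 1.57 at 162 µg of NRCWE-001 and 1.31 at 54 µg of NRCWE-002. The vehicle lungs of day 28 had the lowest mean of all groups, 0.85, and the vehicle lungs of day 1 had 0.99 ± 0.19 (SD, n = 5). Apart from the highest, neighbouring groups in this order overlapped.

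**Figure D4:**
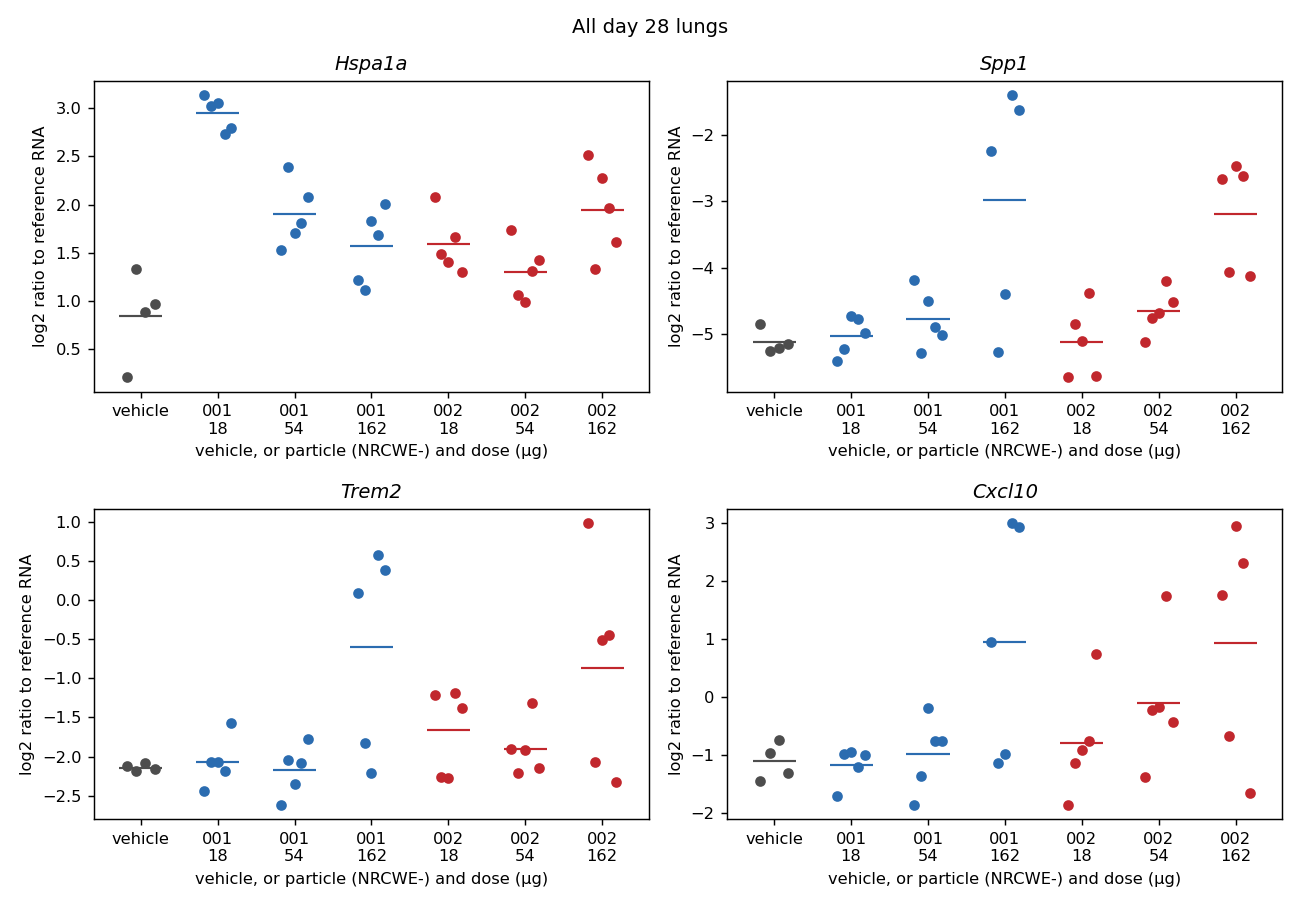
All day 28 lungs are plotted for Hspa1a, Spp1, Trem2 and Cxcl10, with the log2 ratio to reference RNA on the vertical axis, vehicle or particle and dose in µg on the horizontal axis, points for mice and lines for group means. At 162 µg both particles gave lungs at the vehicle level and lungs far above it for Trem2 and Cxcl10, and Hspa1a was highest at 18 µg of NRCWE-001 (mean 2.95).

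Last, the day 28 lungs were compared with those taken 1 day after the same dose. On day 1, limma had called 105 of 17628 genes (0.596%) between NRCWE-002 at 162 µg and its own vehicle lungs, 85 higher and 20 lower. None of the 105 was called on day 28. Of the 85 higher genes, 13 were higher at an unadjusted p below 0.05 on day 28 (15.3%, against 2.97% of all genes) and 1, Nsmce1, was lower, and 64 had a positive change. Their median change was 0.638 on day 1 and 0.135 on day 28. Of the 20 lower genes, 5 were lower on day 28 (25%, against 3.74% of all genes) and 0 higher, with medians of -0.435 on day 1 and -0.106 on day 28. The 2 days used different exposed and different vehicle mice. The 18 genes that kept their direction were 4 to 37 with single lungs left out. The count was 4 of 24 genes called on day 1 without day 1 exposed mouse 58, 37 of 210 without day 1 exposed mouse 69, 29 of 109 without day 28 exposed mouse 7, 28 of 108 without mouse 31, and 11 without mouse 37 (of 105) or 54 (of 108).

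Saa3 had been 6.42 ± 1.14 (SE) higher on day 1, 85.8-fold, and the day 28 change was smaller by 4.24 (95% interval of the difference -7.58 to -0.91, adjusted p of 0.619 by limma). Saa1 and Saa2, the liver-type serum amyloids, had changes of 3.76 and 2.56 on day 1 against 0.74 and 0.14 on day 28. Timp1 went from 2.72 to 0.55, Lcn2 from 3.02 to 1.39 and Cxcl5 from 3.49 to 2.13. In contrast, Spp1 had a change of 1.19 on day 1 and 1.93 on day 28 (difference 0.74, 95% interval -0.55 to 2.04), and Hspa1a 0.20 and 1.09 (difference 0.89, 95% interval 0.31 to 1.46, adjusted p of 0.515 by limma). Tested across all genes, limma called 0 genes (0%) for a change that differed between the days. At an unadjusted p below 0.05 there were 367 with a larger and 814 with a smaller value on day 28, and without exposed mouse 7 the count of calls was 8.

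**Figure D5:**
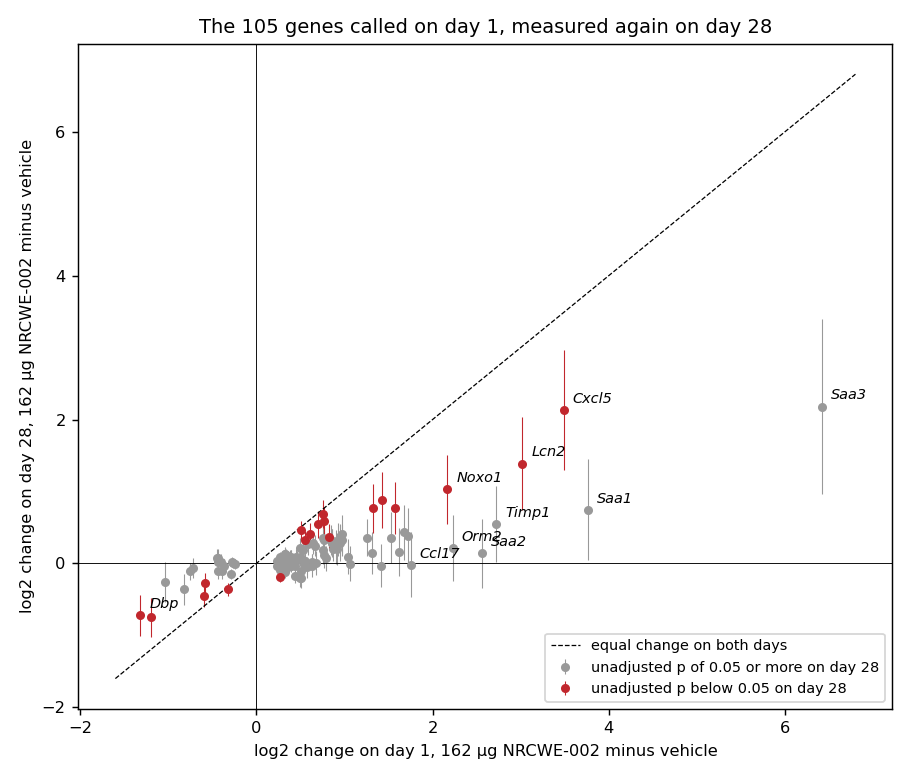
The 105 genes called on day 1 are plotted by their log2 change from vehicle on day 1 (horizontal axis) and on day 28 (vertical axis), with bars of 1 SE on day 28 and red for an unadjusted p below 0.05 on day 28. Most points lie below the dashed line of equal change on the right side, and Saa3, 6.42 on day 1, was 2.18 on day 28.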

How the data were processed

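Lung RNA of each mouse was hybridised with Universal Mouse Reference RNA to 2-colour Agilent arrays. The deposited scanner files held the intensity of each spot, which the authors had extracted with Agilent Feature Extraction 11.0.1.1. The authors' deposited table held log2 ratios of sample to reference after LOWESS, used as an alternative. Genes have symbols from a RefSeq table of GRCm38.p6, which 27479 of 41174 probes (66.7%) matched by accession.

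Median signals were corrected with normexp (offset 50, fitted without spots more than 10 median absolute deviations away in background), and each array was normalized by loess in limma 3.58.1 (R 4.3.3). Outlier spots were dropped. A probe was kept if 4 or more of the 69 arrays showed its lung signal well above background, and a gene took the median of its probes, giving 17628 genes, 11356 with 1 probe. A fit of 14 group means over all 69 arrays was used, tested 2-sided and adjusted by Benjamini-Hochberg within each contrast. Each array held 1 mouse, so p-values rest on the spread between mice. The limma fit pooled that spread over all 14 groups and did not take it from the compared lungs alone. Where the exposed mice were split, the SE can be smaller than these lungs alone would give. For Irf7 the SD was 2.16 in exposed and 0.40 in vehicle lungs, and the SE was 0.58. The dyes were never swapped, which leaves levels open to dye bias. The fit was tested on simulated data.

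Members and lists were chosen with earlier results of these data known. Named were called genes, up to 8 genes in each direction with the largest change among those with an unadjusted p below 0.01 and separate groups, the 3 members of each functional list with the smallest p, a fixed list of 22 inflammation and remodelling genes and the 6 genes with the largest change among those called on day 1. Other genes in the text were chosen after their values were seen. Alternatives were other background corrections, median centring, other filters on dim probes, slide or scan day as a block, array weights, a fit of only the groups compared and single lungs left out. Some genes that the rule names are not reported here.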

Additional observations from a re-analysis of the deposited data

Results flagged for a closer look

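For each named gene, the highest or lowest lung of a group of 4 or 5 was called out when its gap to the next lung, divided by the range of the group, was above the limit of Dixon's test for that number of lungs. Chance gives about 1 in 20 groups, and 12 of the 170 sets tested were above it. No explanation was tested.

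In vehicle lungs, mouse 21 was lowest for Hyal2 (gap over range 0.833) and highest for Gpnmb (0.845), Tk1 (0.879) and Irf7 (0.938), where its log2 ratio was -0.76 and the next -1.54. Vehicle mouse 6 was highest for the cardiac genes Tnni3 (0.836), Pln (0.907) and Csrp3 (0.906), with 3.28 for Tnni3 against 0.32 in the next lung. In exposed lungs, mouse 37 was highest for Pln (0.803), Csrp3 (0.717) and Saa2 (0.888), with 0.86 for Saa2 against 0.03. Mouse 14 was highest for Col1a1 (0.872), at -0.43 against -2.01, and for Tgfb1 (0.745), at 1.33 against 0.12.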

How the results depend on the processing

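No paired analysis was possible because no sample number occurs in both groups, and slide was used as a block instead. Against 1 gene called between exposed and vehicle lungs, median centring or fitting only the groups compared gave 0, probes well above background on all 9 arrays gave 4, slide as a random block 15, scan day as a block 19, and single lungs left out 0 to 69. Slide as a fixed block also gave 1, Prdm8, in place of Hspa1a. For the charged against the unmodified particle (0 called), median centring gave 4, array weights 19 and single lungs left out 0 to 6. For the difference between the days (0 called), slide as a random block gave 7, scan day 23, array weights 17 and single lungs left out 0 to 8. Of the 105 genes called on day 1, 18 were still changed on day 28 (17.1%). The count was 6 of 42 with median centring (14.3%). With slide as a fixed and a random block it was 36 of 345 (10.4%) and 68 of 512 (13.3%). It was 77 of 787 with scan day (9.78%), 97 of 1259 with array weights (7.7%) and 41 of 604 with only the groups compared (6.79%). More genes were called on day 1 in each of these settings except median centring. The share still changed was lower in all of them. With single lungs left out the count was 4 to 37. The interferon count of 13 was 8 with median centring, 3 with only the groups compared and 10 to 13 with single lungs left out. The monocyte chemokine count of 8 was 4 with median centring or only the groups compared, 5 with slide or scan day as a fixed block or array weights, and 3 to 9 with single lungs left out. Median centring, which moved the median of all genes to -0.08, turned the median of the heat shock list to -0.0724 and that of the antioxidant list to -0.141. Ccnb1 turned to 0.14 with slide as a fixed block, and Aurka to -0.0294 with median centring, -0.0501 with slide as a fixed block and -0.00864 with scan day. Of the other results for named genes, 1791 kept their direction and, where tested, their side of the threshold. A further 40 passed a threshold that they had missed, and 10 no longer passed it. Another 100 moved in size or direction, all within the 2 slides shared by both groups. There 58 of the 85 named genes moved between mice 7 and 6 and 27 did not. Between mice 31 and 34, 42 moved and 43 did not. The causes were not tested.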
